A study of Homo sapiens with 24 samples.

Results

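The rows described here are 9 of the 61248 features in the count tables of a BRAT1 knockout series in human embryonic stem cells. They are ACTA2 with ACTA2-AS1 and FAS, which lie on the strand opposite ACTA2, ACTC1 with GJD2-DT opposite it, THY1 with THY1-AS1 opposite it, and SGCA with ENSG00000261959 opposite it. The 9 rows were picked by name, and the names were proposed from the comparison of BRAT1 knockout with control cells at day 14. Levels and differences in that comparison are therefore given as a description without a test. Comparisons at day 0, between days and between lines of 1 genotype are other contrasts and are given with one. Those between lines use the same day 14 libraries, and the choice favours rows with little spread within a genotype.

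All libraries are from H7, an established human embryonic stem cell line. BRAT1 encodes a partner of the Integrator complex, which cleaves nascent RNA. The groups are BRAT1 knockout (KO) line 1 and line 2 and control line 1 and line 2, each as undifferentiated stem cells at day 0 and as cells differentiated towards ventral neural progenitors at day 14, with 3 biological replicates (A, B and C) per line and day. This gives 24 libraries and n = 6 per genotype and day. Each genotype is 2 lines, so the 6 libraries of a group share 2 sources, and p-values treat them as independent. The sources used here do not say how the control lines were made or whether a line is 1 clone.

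Poly(A) RNA was read by Click-Seq, in which sequencing adapters are joined to cDNA by click chemistry. Total counts per library were 1425141 to 2143871 in KO cells and 1407832 to 2059467 in control cells at day 0. They were 2688218 to 3726227 in KO cells and 2228736 to 3682807 in control cells at day 14. The 10 most abundant features held 23.06 to 32.61% of counts in KO libraries and 22.87 to 31.15% in control libraries at day 0, and 25.18 to 33.73% in KO libraries and 23.3 to 27.37% in control libraries at day 14. BRAT1 had between 21 and 262 counts in the KO libraries of day 14, against 414 to 1077 in the control libraries of that day. KO line 1 held 7.66 to 16.9 CPM of BRAT1 (CPM, a count divided by the library total and scaled to 1000000) and KO line 2 held 71.2 to 86.8 CPM, against 186 to 317 CPM in controls. At day 0 the BRAT1 row held 18 counts over the 6 KO libraries and 8 over the 6 control libraries, so it does not check the labels there. In bulk RNA, fewer cells of a type and less RNA per cell cannot be told apart.

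Actins are the subunits of the thin filaments on which myosin pulls. ACTA2 is the actin of smooth muscle and of contractile fibroblasts, and ACTC1 is the actin of heart muscle. Their transcription is controlled through serum response factor, which binds the CArG box, and its cofactors of the myocardin family. THY1 (CD90) is a glycoprotein anchored to the outer membrane by a lipid, found on stem cells, fibroblasts and neurons, and it can bind integrins on other cells. SGCA (alpha-sarcoglycan) is a muscle membrane protein of the complex around dystrophin, and its loss causes a limb-girdle muscular dystrophy. FAS is a death receptor that recruits FADD and starts the caspase cascade when its ligand binds.

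The upstream sequences of the actin genes are shown because both genes are known targets of serum response factor. At day 14 the rows that stood lower in KO cells at these loci were ACTA2-AS1, FAS and GJD2-DT, on the opposite strand. ACTA2 and ACTC1 under their own names overlapped between genotypes. Any part of serum response factor in these levels was not tested. The RefSeq table for GRCh38.p14 had a window for 4 of the 9 rows, and the 250 bases before the start are printed 5′ to 3′ on the minus strand of each gene. For ACTA2 the window is chr10:88952774-88953023, before the inner of its annotated starts, and for ACTC1 it is chr15:34795550-34795799. Capitals mark CArG-like letters, which are CCNNNNNNGG with at most 1 of the inner 6 being G or C, and 1 TATA motif per window.
ACTA2 upstream: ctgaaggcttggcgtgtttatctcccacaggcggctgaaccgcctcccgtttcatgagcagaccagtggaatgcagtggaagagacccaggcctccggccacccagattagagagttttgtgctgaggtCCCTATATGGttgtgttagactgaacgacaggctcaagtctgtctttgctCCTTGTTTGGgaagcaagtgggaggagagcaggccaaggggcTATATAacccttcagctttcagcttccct
ACTC1 upstream: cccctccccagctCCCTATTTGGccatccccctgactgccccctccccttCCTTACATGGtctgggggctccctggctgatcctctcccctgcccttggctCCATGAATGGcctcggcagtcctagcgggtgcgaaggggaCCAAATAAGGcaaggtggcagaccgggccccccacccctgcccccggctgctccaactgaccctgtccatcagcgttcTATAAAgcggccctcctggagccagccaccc
The ACTA2 window held CCCTATATGG at -121 to -112 and CCTTGTTTGG at -71 to -62, counted from the start, and TATATA at -29 to -24. The ACTC1 window held CCAAATAAGG at -109 to -100, in which all 6 inner bases are A or T. It also held CCCTATTTGG from -237, CCTTACATGG from -200, CCATGAATGG from -149 and TATAAA at -31 to -26. Both strands were searched. Of 35116 upstream windows of the same length in the table, 1.16% held a CArG box with only A or T inside and 7.04% held one with at most 1 inner G or C. TATAAA stood in 10.7% of the windows and TATATA in 3.73%. The other ACTA2 window, at the outer start next to FAS, and the other 2 ACTC1 windows held none of these letters. These matches are descriptions and not shown to be bound sites.

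On GRCh38, ACTA2 (ENSG00000107796) lies at chr10:88935074-88991339 on the minus strand, ACTA2-AS1 (ENSG00000180139) at chr10:88932390-88940820 on the plus strand and FAS (ENSG00000026103) at chr10:88990582-89015785 on the plus strand. ACTA2-AS1 shares 516 bp of exon with the far end of ACTA2, of which 364 bp are coding sequence of ACTA2. FAS shares 380 bp with the outermost noncoding exon of ACTA2. ACTC1 (ENSG00000159251) lies at chr15:34788095-34795726 on the minus strand, and GJD2-DT (ENSG00000250007), at chr15:34755084-34812923 on the plus strand, shares 367 bp with a noncoding part of its exons. THY1 (ENSG00000154096) lies at chr11:119417378-119424985 on the minus strand, and the whole of THY1-AS1 (ENSG00000263873), 632 bp of exon at chr11:119417951-119419114 on the plus strand, sits inside noncoding exon sequence of THY1. SGCA (ENSG00000108823) lies at chr17:50164214-50175931 on the plus strand, and ENSG00000261959, at chr17:50163523-50165316 on the minus strand, shares 103 bp with its first exon.

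**Figure D1:**
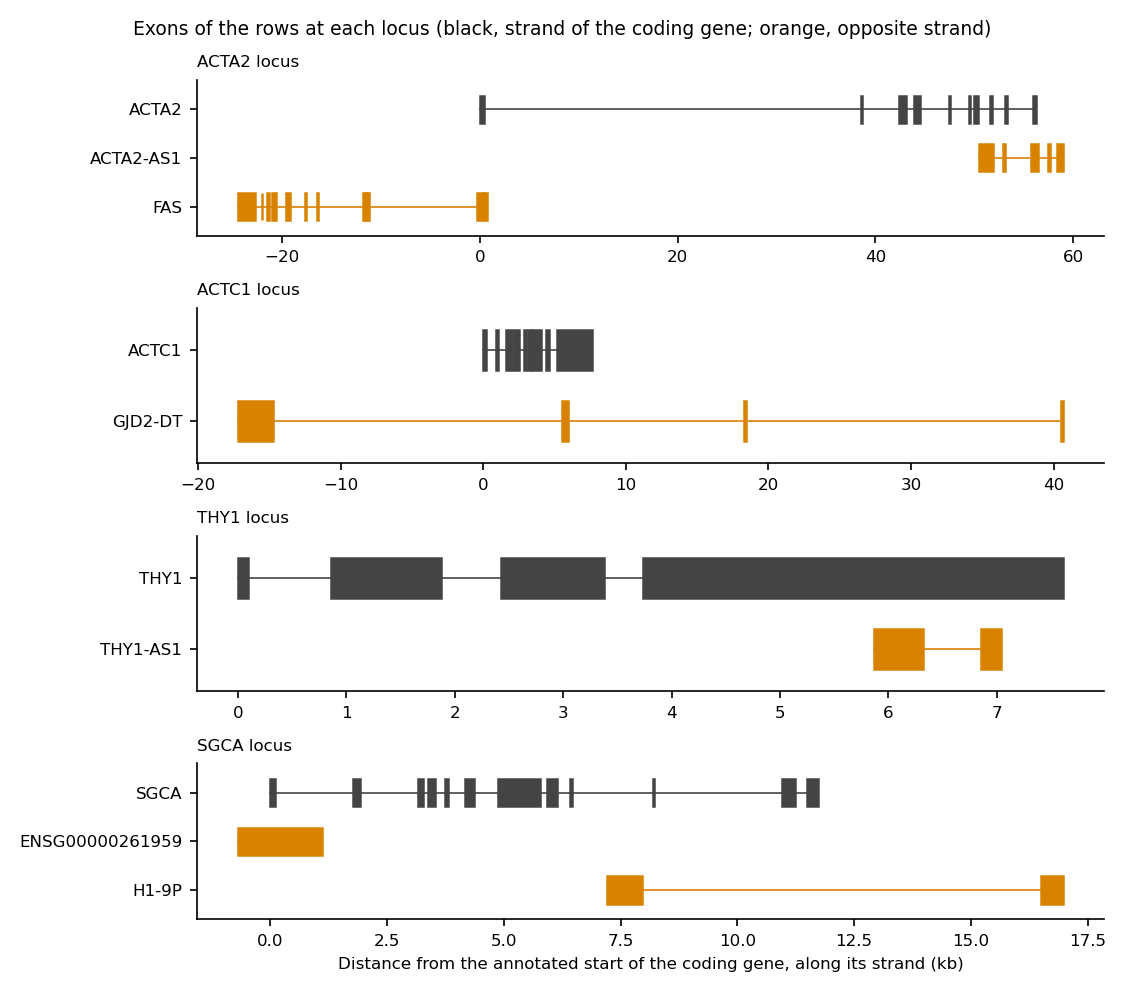
Exons of the rows at the 4 loci, with distance from the annotated start of the coding gene in kb on the horizontal axis and 1 row per feature. Boxes are exons, black for the strand of the coding gene and orange for the opposite strand: FAS meets ACTA2 only at its start, ACTA2-AS1 and THY1-AS1 meet their partners near the far end, and SGCA has little exon overlap.

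At 3 of the 4 loci nearly all counts stood under the row opposite the coding gene. Over the 24 libraries, ACTA2 held 125 counts and ACTA2-AS1 held 4251, ACTC1 held 79 and GJD2-DT held 2467, and THY1 held 435 and THY1-AS1 held 46818. At the SGCA locus the order was the other way, with 190 counts under SGCA and 9 under ENSG00000261959. Across 144 pairs of an antisense row and a coding gene chosen for this lopsidedness, the lesser row held 1.21 to 1.68% of the greater in KO libraries and 1.00 to 1.64% in control libraries at day 0, and 3.12 to 5.83% in KO and 2.42 to 3.62% in control libraries at day 14. The strand setting used for counting is not given in the sources used here, so RNA of a coding gene counted on the other strand and RNA of its antisense partner cannot be told apart, and each value below belongs to a named row. The coding sequences of ACTA2 and ACTC1 are 85.5% identical and share no stretch of 50 bases, and ACTA2 shares none with the other actins either, at 81.8 to 84.7% identity.

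ACTA2-AS1, the most counted row at the ACTA2 locus, was lower in KO than in control cells at day 14, while the genotypes overlapped at day 0. At day 14 its lowest, median and highest levels were 22.3, 37.4 and 45.9 CPM in KO libraries, against 120, 154 and 183 CPM in control libraries. The groups did not overlap, and the highest KO library held well under the lowest control library. At day 0 the same row had 3.79, 36.5 and 60.2 CPM in KO libraries and 1.38, 24.1 and 37.9 CPM in control libraries, with wide overlap. In KO cells the day 14 level, 35.4 ± 9.01 CPM, was inside the range of day 0, 32.9 ± 21.4 CPM (SD, n = 6 each). In control cells it was 21.7 ± 14.9 CPM at day 0 and 153 ± 22.7 CPM at day 14 (SD, n = 6 each), and every day 14 library was above every day 0 library. The log2 fold change of KO over control at day 14 was -2.13 with an SE of 0.17. At day 0 it was 0.55 with an SE of 0.70, and the adjusted p was 1.0 in the edgeR quasi-likelihood test.

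FAS, read on the same strand as ACTA2-AS1 at the other end of ACTA2, went the same way at day 14. Its lowest, median and highest levels were 13.0, 18.2 and 23.0 CPM in KO libraries, against 47.6, 56.2 and 69.5 CPM in control libraries, without overlap. The log2 fold change was -1.71 with an SE of 0.21. At day 0 FAS was at 0 to 10.1 CPM in KO libraries and at 0 to 87.7 CPM in control libraries, where 1 library, control line 2 replicate B with 141 counts, stood far above the other 5, at 0 to 10.2 CPM. FAS did not pass the filter on low counts in the day 0 comparison. Set against ACTA2-AS1 within each day 14 library, FAS had 39.8 to 58.6% as many counts in KO libraries and 30.4 to 47.4% in control libraries, with medians of 51.2% and 37.6% and with overlap. Over the 6 day 14 libraries of a genotype, which share 2 lines and their depth, the Pearson r of ACTA2-AS1 and FAS on the log2(CPM + 1) scale was 0.863 in KO cells and 0.43 in control cells.

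ACTA2 under its own name was at 0 in all 12 libraries of day 0, and with 3 counts as the limit this allows up to 0.278 CPM over the KO group and 0.294 CPM over the control group. At day 14 it had 0.365 to 4.56 CPM in KO libraries, with a median of 2.22, and 0.897 to 8.24 CPM in control libraries, with a median of 3.19. These ranges overlapped, and the log2 fold change was -0.75 with an SE of 0.63. As a share of ACTA2-AS1 counts, ACTA2 had a median of 6.81% in KO libraries and 2.18% in control libraries of day 14, with ranges of 0.877 to 14.3% and 0.746 to 5.17%. Because ACTA2-AS1 was proposed from this comparison and stood lower in KO cells, nothing is read from the higher KO share.

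**Figure D2:**
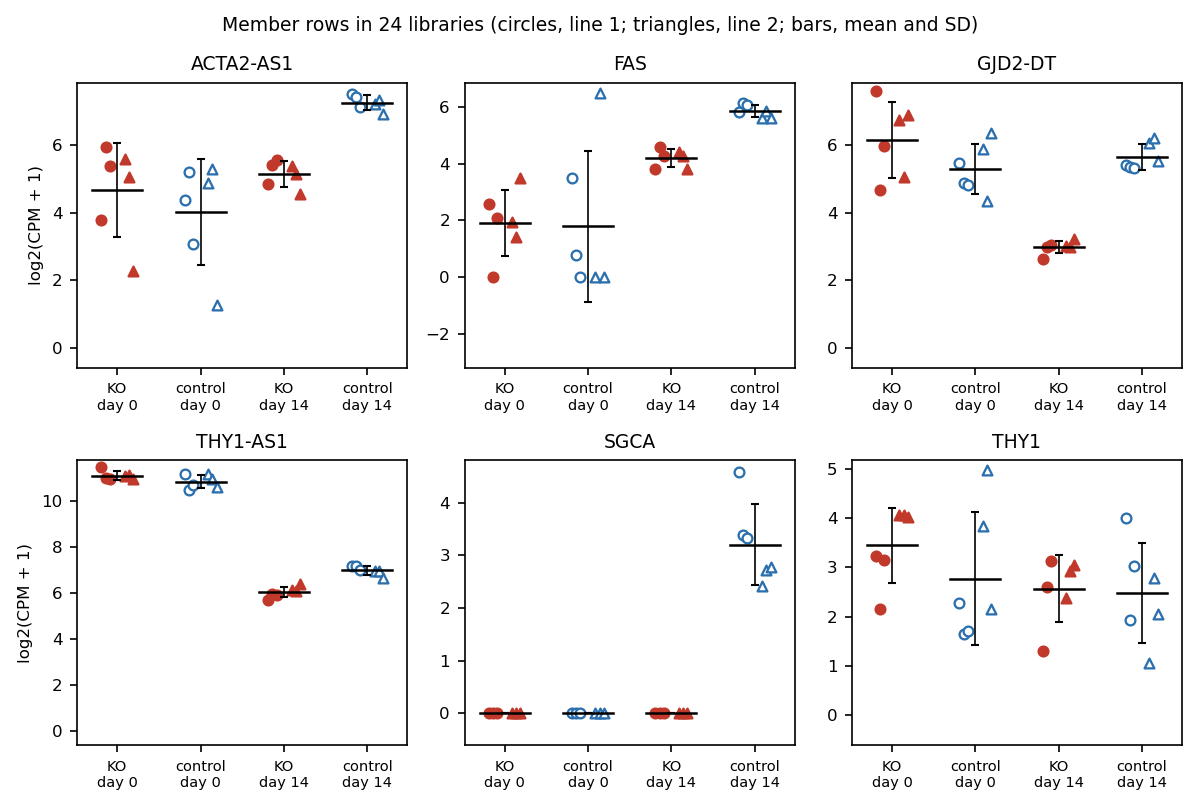
Levels of 6 of the rows as log2(CPM + 1) in each of the 24 libraries, with KO in filled red and control in open blue, circles for line 1 and triangles for line 2, and bars for the mean and SD over 6 libraries. At day 14 the KO libraries of ACTA2-AS1, FAS, GJD2-DT, THY1-AS1 and SGCA sit below all control libraries, while those of THY1 overlap them, and at day 0 the genotypes overlap in every panel.

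At the ACTC1 locus GJD2-DT, an RNA that begins beside the connexin gene GJD2 and runs across ACTC1 on the other strand, was the counted row. At day 14 its lowest, median and highest levels were 5.21, 6.97 and 8.27 CPM in KO libraries, against 38.8, 43.3 and 72.4 CPM in control libraries, again without overlap. The KO libraries lay close together and the control libraries of line 2, at 44.9 to 72.4 CPM, were all above those of line 1, at 38.8 to 41.8 CPM. The log2 fold change of KO over control was -2.87 with an SE of 0.24. At day 0 the levels were 24.7, 83.5 and 192 CPM in KO libraries and 19.3, 35.8 and 80.2 CPM in control libraries. The day 0 log2 fold change of 1.04, with an SE of 0.49, was thus of the other sign, and it had an unadjusted p of 0.0474 and an adjusted p of 1.0 in edgeR.

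ACTC1 itself was nearly uncounted. At day 0 it had 3 counts over the 6 KO libraries, all in 1 library, and 1 count over the 6 control libraries. At day 14 it had 0 to 4.84 CPM in KO libraries and 1.64 to 2.99 CPM in control libraries, with medians of 1.51 and 2.58 CPM. It did not pass the filter on low counts in any comparison, and 2 KO libraries of line 1 had none while the third had 13 counts, more than any control library.

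THY1-AS1 was the row with the most counts, and of the 5 rows tested between days it had the greatest difference. At day 0 its lowest, median and highest levels were 1970, 2113 and 2849 CPM in KO libraries and 1406, 1809 and 2322 CPM in control libraries, and the ranges overlapped. At day 14 they were 51.3, 64.9 and 82.0 CPM in KO libraries, against 101, 126 and 145 CPM in control libraries, without overlap. Within each genotype every day 0 library was above every day 14 library. The log2 fold change of KO over control was 0.22 with an SE of 0.19 at day 0 (adjusted p 1.0, edgeR) and -0.97 with an SE of 0.15 at day 14.

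THY1 under its own name did not follow this split at day 14. It had 1.49 to 7.78 CPM in KO libraries, with a median of 5.85, and 1.09 to 14.9 CPM in control libraries, with a median of 4.52, and the log2 fold change was -0.14 with an SE of 0.53. At day 0 it had 3.44 to 15.7 CPM in KO libraries and 2.13 to 30.5 CPM in control libraries, with a log2 fold change of 0.21 and an SE of 0.84 (adjusted p 1.0, edgeR). THY1 counts were 0.170 to 0.770% of THY1-AS1 counts in KO libraries and 0.140 to 1.54% in control libraries at day 0. At day 14 they were 2.90 to 13.3% in KO libraries and 0.897 to 10.3% in control libraries. USP2-AS1, which spans the locus on the strand of THY1-AS1 without sharing exons with THY1, averaged 22.8 ± 6.82 CPM in KO and 17.7 ± 4.68 CPM in control libraries of day 14 (SD, n = 6 each).

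**Figure D3:**
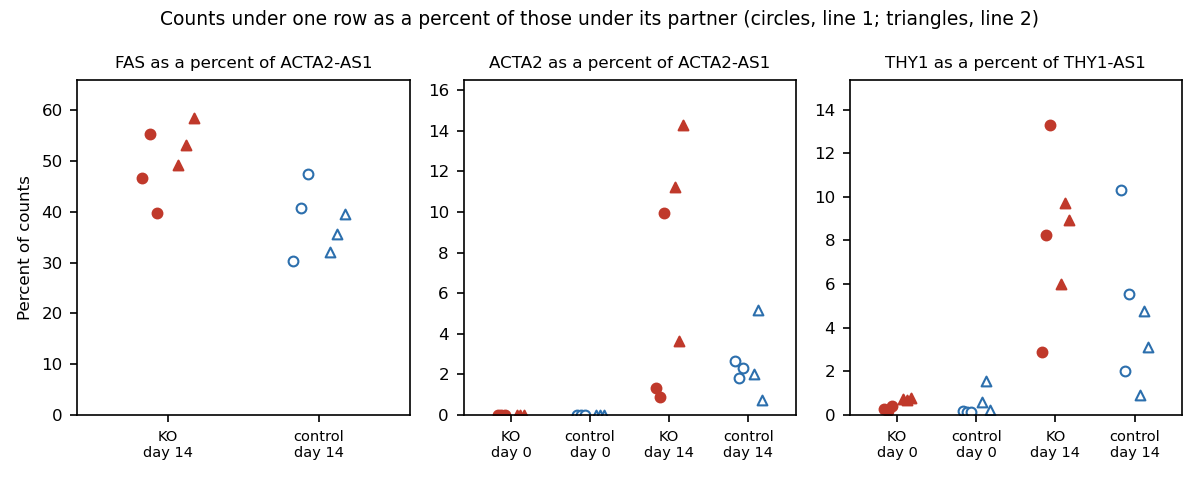
Counts under FAS and ACTA2 as a percent of ACTA2-AS1 counts, and counts under THY1 as a percent of THY1-AS1 counts, in each library (KO filled red, control open blue, circles line 1, triangles line 2). FAS at day 0 is left out because few counts lie under it there. The KO medians at day 14, 51.2%, 6.81% and 8.58%, stand above the control medians, 37.6%, 2.18% and 3.95%, and the ranges overlap in all 3 panels. ACTA2-AS1 and THY1-AS1, by which counts are divided, were proposed from this comparison and stood lower in KO cells. A higher KO percent is thus largely set by that choice, and nothing is read from it. Medians of 144 other lopsided pairs at day 14 were 4.05% in KO and 2.995% in control libraries.

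SGCA had no counts in the 6 KO libraries of day 14, against 84, 30 and 28 counts in replicates A to C of control line 1 and 16, 19 and 13 in those of control line 2. All 12 libraries of day 0 were also at 0. Thus SGCA was counted in the 6 control libraries of day 14 and in no other library, and 1 of these, control line 1 replicate A at 22.8 CPM, stood above the other 5, at 4.37 to 9.44 CPM. Pooled over the group, SGCA had 9.87 CPM in control cells of day 14. A limit of 3 counts over the 6 KO libraries is 0.164 CPM, and the pooled control value was 60.4-fold above it. That ratio takes the pooled control value as exact, while control line 1 averaged 13.8 CPM and control line 2 averaged 5.26 CPM. It is therefore no lower bound over the spread of the controls. The limit of 3 counts covers counting error only, and reads without molecular identifiers are not independent molecules. ENSG00000261959 had 1 count in KO and 4 in control libraries of day 14, and 4 in KO and 0 in control libraries of day 0. Neighbours on the opposite strand of SGCA were H1-9P, with 12 counts in KO and 7 in control libraries of day 14, and the collagen gene COL1A1, which lies farther along, with 12 counts in KO and 53 in control libraries. Which strand's RNA gave the SGCA counts cannot be told apart here.

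Set side by side at day 14, 5 of the 9 rows had adjusted p under 0.05 for lower values in KO cells, a share for which the background was 10.7% of the 11408 features tested. Because the rows were picked on this contrast, nothing is read from that count. With all 24 libraries in 1 fit, FAS was not among them (adjusted p 0.525, edgeR), and SGCA and ACTA2 did not pass the filter. Likewise, for 5 of the 9 rows all KO libraries were below all control libraries, which held for 6.0% of all features tested. ACTC1 and ENSG00000261959 were under the filter on low counts, and ACTA2 and THY1 passed it without reaching the threshold. No member had adjusted p under 0.05 for higher values in KO cells, where the background was 11.0%. The median log2 fold change of all tested features was 0.07.

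**Figure D4:**
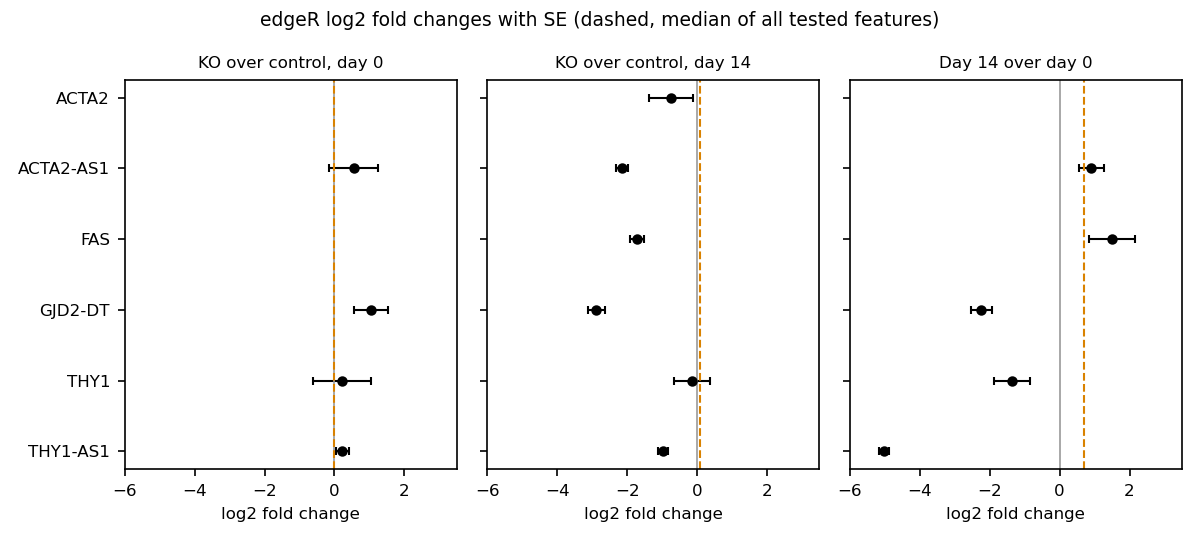
edgeR log2 fold changes (points) with SE (bars) of the rows tested in each comparison, KO over control at day 0 and day 14 and day 14 over day 0, with the median of all tested features as a dashed line. SGCA is not drawn because its KO counts were all 0. Values of 0.21 to 1.04 at day 0 stand beside values of -0.14 to -2.87 at day 14, and the day comparison runs between -5.02 and 1.51.

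The comparison of genotypes at day 0 asked whether the rows already differed in stem cells, in libraries that the choice of rows did not use. Of the 9 rows, 4 passed the filter and none was called, and the background was 0.0% because none of the 4832 features tested was called by edgeR. At an unadjusted p under 0.05 there were 99 features with edgeR, and DESeq2 also called 0, with 868 at that unadjusted p. The 4 log2 fold changes were between 0.21 and 1.04, all positive, with SEs of 0.19 to 0.84. SGCA and ACTA2 were at 0 in both genotypes, so their day 14 levels have no counterpart at day 0.

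The day comparison gave both genotypes the same weight, so that it does not contain the contrast used for the choice. Of the 9 rows 5 were tested. ACTA2-AS1 and FAS were called higher at day 14, with a background of 40.3%, and GJD2-DT, THY1 and THY1-AS1 were called lower, with a background of 19.6%. THY1-AS1 fell by 5.02 on the log2 scale (SE 0.14, adjusted p 4.34e-24, edgeR), and all 12 day 14 libraries were below all 12 day 0 libraries. The share of all features whose libraries separate by day, over both genotypes or within 1, is not given here. GJD2-DT fell by 2.24 (SE 0.30, adjusted p 1.56e-07, edgeR). THY1 fell by 1.36 with an SE of 0.51 and an adjusted p of 0.0216 in edgeR. ACTA2-AS1 rose by 0.91 (SE 0.35, adjusted p 0.0265, edgeR), and FAS by 1.51 (SE 0.66, adjusted p 0.0477, edgeR). The median log2 fold change of all features was 0.71 here, 1.02 with the size factors called RLE and 0.47 in DESeq2. Relative to that median, ACTA2-AS1 stood at 0.20, FAS at 0.80, GJD2-DT at -2.95, THY1 at -2.07 and THY1-AS1 at -5.73.

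The calls of ACTA2-AS1, FAS and THY1 between days did not hold under all alternatives. The FAS call was lost in 24 of 32 alternatives, with an adjusted p of 0.0661 when counts were summed per line. Without control line 2 replicate B of day 0 the FAS value was 2.81, with an adjusted p of 1.24e-04. THY1 was at -0.96 with an adjusted p of 0.0881 without that same library, and at -0.32 with an adjusted p of 0.666 without control line 2. ACTA2-AS1 kept its call when any 1 of the 24 libraries was left out, with adjusted p of 0.0109 to 0.042, and missed the threshold without KO line 1, without KO line 2 or without control line 1, with adjusted p of 0.0749, 0.0716 and 0.118.

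Within genotypes the same rows ran differently, and these values are a description because their difference is the contrast used for the choice minus the one at day 0. Over the 14 days, ACTA2-AS1 had a log2 fold change of -0.44 in KO cells and 2.25 in control cells. GJD2-DT had -4.20 in KO cells and -0.28 in control cells. The FAS value in control cells rests on control line 2 replicate B of day 0, which held 141 of the 163 control counts of that day. For FAS the values were 1.69 in KO cells and 1.33 in control cells, for THY1 -1.57 in KO cells and -1.15 in control cells, and for THY1-AS1 -5.61 in KO cells and -4.43 in control cells. In KO cells every GJD2-DT level of day 14 was below every level of day 0, while the control levels of both days overlapped.

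The order of mean levels over the 4 groups differed by row. ACTA2-AS1 stood highest in control cells of day 14, and the other 3 groups, KO day 14, KO day 0 and control day 0 in falling order, overlapped. FAS was highest in control day 14, then KO day 14, control day 0 and KO day 0. Without the 1 high library of control day 0 the mean of that group was 2.18 CPM, against 57.2 CPM in control cells of day 14, and below the 3.80 CPM of KO day 0, so the last places turn round. That library lay above the control libraries of day 14, and the day 0 groups overlapped each other. For GJD2-DT the falling order was KO day 0 at 89.0 ± 62.8 CPM, control day 14 at 50.6 ± 14.7 CPM, control day 0 at 42.7 ± 23.0 CPM and KO day 14 at 6.93 ± 0.986 CPM (SD, n = 6 each). Its first 3 groups overlapped and KO day 14 was below all of them. THY1-AS1 fell in the order KO day 0, control day 0, control day 14 and KO day 14, at 2217 ± 332, 1864 ± 385, 127 ± 15.9 and 65.3 ± 10.6 CPM (SD, n = 6 each), with overlap only between the first 2 groups.

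Lines of 1 genotype were compared in the day 14 libraries from which the rows were proposed. Rows picked on the genotype contrast tend to have little spread within a genotype, so an absence of calls was favoured in advance. Nothing is read from that absence. KO line 2 against KO line 1 at day 14 called none of the 5 rows tested, with a background of 0.402% of features, and their log2 fold changes were between -0.26 and 0.34. BRAT1 itself was 2.72 higher in KO line 2 on the log2 scale (adjusted p 4.67e-05, edgeR). ACTA2-AS1 had 22.3 to 40.6 CPM in KO line 2 and 27.9 to 45.9 CPM in KO line 1, and THY1-AS1 had 67.8 to 82.0 CPM in KO line 2 and 51.3 to 62.0 CPM in KO line 1. Control line 2 against control line 1 called none of 7 rows, with a background of 0.244%. SGCA, at -1.41 with an SE of 0.49 (unadjusted p 0.00819, adjusted p 0.539, edgeR), and GJD2-DT, at 0.59 (unadjusted p 0.0135, adjusted p 0.648, edgeR), had an unadjusted p under 0.05 there. In both of these rows, and in THY1-AS1, the ranges of the 2 control lines did not overlap. The share of all features for which this held is not given here, so nothing is read from it.

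Other genes of the pathways around these rows were counted under their own name and under any feature on the opposite strand, since both readings are possible. The lists were written with earlier results of these data known, and counts leave out the 9 rows. Of the actin isoforms, ACTG1 and ACTB, the actins of nonmuscle cells, passed the filter under their own names. ACTG1 had 6317 ± 2413 CPM in KO and 3903 ± 974 CPM in control cells of day 14 (SD, n = 6 each), a log2 fold change of 0.66 (adjusted p 0.0333, edgeR). ACTB stood at 529 ± 209 CPM in KO and 406 ± 118 CPM in control cells, with a log2 fold change of 0.35 and an adjusted p of 0.297 in edgeR. The near-identical copies of these 2 genes make their counts uncertain. ACTA1 and ACTG2, the skeletal and enteric muscle actins, were under the filter.

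Of 11 smooth muscle and serum response factor target genes tested under their own names, 1 was higher and 2 were lower in KO cells, and of 10 opposite features 1 was higher and 2 were lower, beside 11.0% higher and 10.7% lower among all features tested. MYH11, the smooth muscle myosin heavy chain, had 140 ± 12.5 CPM in KO and 195 ± 24.5 CPM in control cells (SD, n = 6 each), a log2 fold change of -0.48 (adjusted p 0.0109, edgeR). The MYH11 row may hold RNA of NDE1, whose exons meet it on the other strand. ENSG00000279753, opposite the actin-binding calponin CNN2, fell by 0.85 (adjusted p 7.24e-05, edgeR). TPM1-AS, opposite the tropomyosin TPM1, had -0.06 with an adjusted p of 0.836 in edgeR. The list medians were -0.32 for own names and 0.19 for opposite features, beside 0.07 for all features.

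Of 9 regulators of serum response factor and TGF-beta signalling under their own names, 4 were higher and 1 was lower, beside 11.0% higher and 10.7% lower among all features tested, and the 1 opposite feature was not called. MRTFA, a cofactor of serum response factor, was 0.69 higher in KO cells (adjusted p 0.0251, edgeR), at 54.5 ± 17.1 CPM in KO and 33.1 ± 10.4 CPM in control cells (SD, n = 6 each). The ligand TGFB1 fell by 0.35 (adjusted p 0.0354, edgeR), while HNRNPUL1, the gene whose exons meet it on the other strand, had 0.03 with an adjusted p of 0.952 in edgeR. The list median was 0.69 for own names.

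In the sarcoglycan and dystrophin complex 2 of 8 genes were higher and 1 was lower under own names, and of 4 opposite features 1 was higher and 1 lower, against the same background of 11.0% and 10.7%. SGCE, epsilon-sarcoglycan, had 1518 ± 391 CPM in KO and 896 ± 50.4 CPM in control cells (SD, n = 6 each), a log2 fold change of 0.76 (adjusted p 3.56e-04, edgeR). PEG10, its head-to-head neighbour on the other strand, was 1.08 higher (adjusted p 8.78e-05, edgeR).

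For the FAS death receptor pathway none of 5 genes was called under its own name, and 3 of 4 opposite features were lower, beside 10.7% lower among all features tested. They included CFLAR-AS1, opposite the caspase 8 inhibitor CFLAR, which fell by 0.73 (adjusted p 0.00104, edgeR), and ENSG00000254721, opposite the adaptor FADD, which fell by 0.50 (adjusted p 0.0106, edgeR). The other was IMPDH1P10, at -1.11 (adjusted p 0.0388, edgeR). It also lies opposite CFLAR, so the 3 features do not stand for 3 genes. Of the integrins and surface partners of THY1, 1 of 4 was higher and 1 lower under own names, with a background of 11.0% higher and 10.7% lower. ITGA5, the alpha chain of the fibronectin receptor, fell by 2.03 (adjusted p 5.27e-04, edgeR), at 7.19 ± 3.90 CPM in KO and 29.1 ± 4.68 CPM in control cells (SD, n = 6 each). ITGB3, the beta chain of the vitronectin receptor, had 0.78 with an adjusted p of 0.0706 in edgeR, and ENSG00000227227, opposite its partner ITGAV, had -0.16 with an adjusted p of 0.586.

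**Figure D5:**
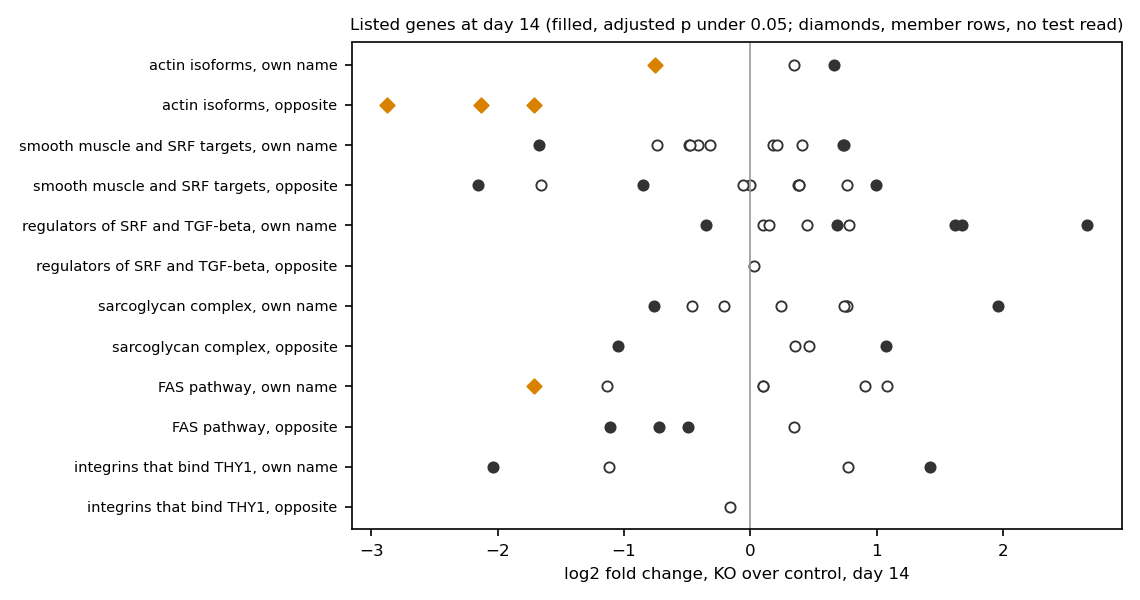
Log2 fold changes of KO over control at day 14 for the genes of 6 lists, under their own names and under features on the opposite strand (circles, filled where the adjusted p was under 0.05; orange diamonds, the rows this text is about, for which no test is read; SGCA not drawn). Both directions occur in most lists, and the rows opposite the muscle actins lie at -1.71 to -2.87.

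Markers of other cell types moved with genotype at day 14, and their part in these results was not tested. Summed levels of 13 mesenchyme markers under their own names were 167 to 442 CPM in KO and 116 to 238 CPM in control libraries. Of the 13, 12 had a count in KO and 9 in control libraries, with LUM at 0 in both and TWIST1, DCN and POSTN at 0 in controls. Most of this sum was VIM, which neural progenitors also express, at 228 CPM in KO and 163 CPM in control libraries on average. Features opposite mesenchyme markers held 8188 to 11980 CPM in KO and 10900 to 13760 CPM in control libraries, nearly all of it in VIM-AS1 (4731 CPM in KO, 5654 CPM in control) and ENSG00000234961 (5511 CPM in KO, 6888 CPM in control), both opposite VIM. The 4 smooth muscle markers other than ACTA2 summed to 126 to 158 CPM in KO and 157 to 231 CPM in control libraries, and all 4 had a count in both. Nearly all of this sum was MYH11, at 140 CPM in KO and 195 CPM in control libraries on average. In stem cells of day 0 MYH11 already averaged 122 CPM in KO and 107 CPM in control libraries. TAGLN, CNN1 and MYOCD averaged at most 2.83 CPM in either genotype at day 14. The 6 neural crest markers summed to 30.9 to 72.2 CPM in KO and 111 to 149 CPM in control libraries, without overlap, and none was at 0. The 3 features opposite them summed to 33.6 to 56.9 CPM in KO and 63.3 to 94.2 CPM in control libraries. Of these, FOXD3-AS1 averaged 0.915 CPM in KO and 48.1 CPM in control libraries, while TFAP2A-AS1 (6.25 CPM in KO, 4.53 CPM in control) and TFAP2A-AS2 (37.4 CPM in KO, 27.8 CPM in control) had higher means in KO libraries. The 7 neural progenitor markers summed to 443 to 705 CPM in KO and 178 to 312 CPM in control libraries under their own names, and their 2 opposite features to 17.9 to 149 CPM in KO and 125 to 197 CPM in control libraries. Cardiac markers other than ACTC1 summed to 4.84 to 15.3 CPM in KO and 1.26 to 4.52 CPM in control libraries, with TNNT2 and HAND2 at 0 in KO libraries and MYH7, NKX2-5, TBX5 and HAND1 at 0 in control libraries. The 6 neuron markers summed to 87.1 to 226 CPM in KO and 28.7 to 74.2 CPM in control libraries, and the 4 endothelial markers to 0.954 to 7.78 CPM in KO and 3.14 to 7.43 CPM in control libraries. The 6 skeletal muscle markers other than SGCA summed to 0.744 to 10.2 CPM in KO and 2.91 to 7.24 CPM in control libraries, with MYOD1, MYF5 and PAX7 at 0 in both groups and MYOG, CKM and ACTA1 with counts in both. Features opposite 2 stem cell markers had 482 to 779 CPM in KO and 536 to 779 CPM in control libraries at day 0. At day 14 they had at most 1.88 CPM in KO and 1.29 CPM in control libraries. Sums of the 7 stem cell markers under their own names did not show this fall, and their ranges overlapped between days. Their medians at day 0 and day 14 were 75.54 and 67.91 CPM in KO libraries. In control libraries they were 67.55 and 78.53 CPM. Mean POU5F1 fell from 36.7 to 4.61 CPM in KO libraries, while mean LIN28A rose from 12.4 to 57.3 CPM.

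Features with the most similar pattern over the 12 libraries of day 14 were found by the Pearson r of log2(CPM + 1), a likeness that mostly follows the split between genotypes and carries no test. For ACTA2-AS1 they were MYCNOS (r 0.981), OTUD4 (r 0.972) and FOXD3-AS1 (r 0.971). MYCNOS had 5.34 ± 1.73 CPM in KO and 32.4 ± 4.84 CPM in control libraries (SD, n = 6 each). Those nearest THY1-AS1 were ENSG00000285813 (r 0.975), IER5L-AS1 (r 0.974) and GCSAM (r 0.974). SGCA was most like ENSG00000287510 (r 0.964), ENSG00000264324 (r 0.959) and REX1BD (r 0.95). GJD2-DT was most like PHLDA1-AS1 (r 0.986), SLC25A26 (r 0.983) and LINC01124 (r 0.981). PHLDA1-AS1 had 28.2 ± 6.85 CPM in KO and 218 ± 34.1 CPM in control libraries (SD, n = 6 each). Within genotypes, ACTA2-AS1 and THY1-AS1 had an r of -0.356 over the 6 KO libraries and 0.911 over the 6 control libraries.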

How the data were processed

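The authors deposited 1 table per poly(A) Click-Seq library, with a raw, unscaled read count for each gene. Per the submitters' processing notes, the tools were bcl2fastq 2.20.0, STAR 2.7.9a, featureCounts from Subread 2.0.1, DESeq2 1.34.0 and R 3.5.1 with the GRCh38 build. Neither annotation release nor strand setting is stated in these sources, and overlap on the other strand can move counts between rows. Names were matched to GENCODE 29, which placed 57060 of 61248 features holding 90.17% of counts. Library totals were 1407832 to 3726227, which limits rows of a few counts.

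The 9 rows, the gene lists and the tests were chosen with earlier results of these data known. Groups followed the labels. Fits used edgeR 4.0.16 under R 4.3.3 (quasi-likelihood test, TMM scaling, filterByExpr, robust), with Benjamini-Hochberg adjustment over all features tested and a threshold of 0.05. KO was compared with control per day, day 14 with day 0 as the mean of both genotypes, and line 2 with line 1 per genotype at day 14. The fits were tested on simulated data. Other settings tried were RLE scaling, DESeq2 1.42.0, no filter, sums per line, a replicate block, wider fits, and leaving out lines and libraries. Beyond the 9 rows and BRAT1, the rule named the up to 3 most abundant tested features of each list. It also named the 3 features most like each of 4 rows. Others are markers, features opposite listed genes or neighbours, named after their values were seen. One feature under this rule is not reported here. Promoters came from RefSeq and were searched with Biopython 1.88.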

Additional observations from a re-analysis of the deposited data

Results flagged for a closer look

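A library was singled out where its gap to the nearest other library of its group of 6 took up most of the group's range, by Dixon's 95% limit. This was looked at in 27 groups of rows, 5 were singled out, and chance gives about 1 in 20. FAS at day 0 had 87.67 CPM in control line 2 replicate B, against 0 to 10.2 CPM in the other 5 control libraries. THY1-AS1 at day 0 had 2849 CPM in KO line 1 replicate A, against 1970 to 2265 CPM in the other 5 KO libraries. SGCA at day 14 had 22.81 CPM in control line 1 replicate A, against 4.37 to 9.44 CPM in the other 5 control libraries. ENSG00000261959 had 1.866 CPM in KO line 1 replicate C at day 0 and 1.086 CPM in control line 1 replicate A at day 14, each from 4 counts, with the other 5 libraries of its group at 0.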

How the results depend on the processing

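Over all alternatives, log2 fold changes at day 14 kept their sign for ACTA2-AS1 (-2.32 to -2.02), FAS (-1.94 to -1.59), GJD2-DT (-3.19 to -2.62), THY1-AS1 (-1.18 to -0.87) and ACTA2 (-1.17 to -0.44), while THY1 ran from -0.72 to 0.62. Between days, THY1-AS1 (-5.31 to -4.71) and GJD2-DT (-2.49 to -1.95) kept direction and call under all 33 alternatives. ACTA2-AS1 lost its call without KO line 1 (0.97), KO line 2 (0.90) or control line 1 (0.88). FAS lost it with counts summed per line (1.24), without KO line 1 (1.32), KO line 2 (1.80) or control line 1 (1.03), and ran from 1.38 to 2.81 when 1 library was left out. THY1 lost it with counts summed per line (-1.63), RLE scaling (-1.06) or no filter (-1.32), and without KO line 1 (-1.50), KO line 2 (-1.05) or control line 2 (-0.32), and ran from -1.56 to -0.96 when 1 library was left out. Counts of features called also moved. KO against control at day 14 called 2474, 241 with all 24 libraries in 1 fit, 1552 without control line 1 and 1266 without control line 2. At day 0 it called 0, 116 with all 24 libraries, 13 without a filter and 1 without control line 1. Day 14 against day 0 called 6573, 11256 with DESeq2 and 14114 without a filter. KO line 2 against line 1 called 50, 154 with DESeq2, 184 with all 12 libraries of day 14, 129 without a filter and 22 to 140 with 1 library left out. Control line 2 against line 1 called 28, 16 with all 12, 86 without a filter and 21 to 57 with 1 library left out. The causes were not tested.

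Uncalled values changed sign in places: ACTA2 between control lines (0.09; -0.22 with the replicate block; -0.86 to 0.51 with 1 library left out), FAS between KO lines (-0.10; -0.24 to 0.13), THY1 between KO lines (0.34; -0.041 to 0.78) and THY1 between genotypes at day 0 (0.21; -0.52 without KO line 2 and -0.51 without control line 1).

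Libraries of the same letter in different lines and genotypes had correlated deviations of 0.08 to 0.29 at day 0, over 0.1 in 14 of 18 pairs, with each library closest to its own letter in 18 of 18 comparisons, a hint from the data that letters were shared at day 0. At day 14 they were -0.23 to 0.14, with 5 of 18. The labels do not say what a letter marks, and not every pair was over 0.1, so the block stayed an alternative. With it the day 0 log2 fold changes were 0.89 for ACTA2-AS1, 0.84 for GJD2-DT, 0.51 for THY1 and 0.23 for THY1-AS1, each with an adjusted p of 0.998. The replicate block gave 2256 calls at day 14, 0 at day 0, 6738 between days, 40 between control lines and 184 between KO lines. Depth limits ACTA2, ACTC1, THY1, SGCA and ENSG00000261959, whose libraries mostly hold under 30 counts at day 14.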
